A study of Arabidopsis thaliana with 12 samples.

Results

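Loss of CPR5 was examined in Arabidopsis thaliana shoots, harvested as aerial parts at 2 weeks, by setting the 2 arrays of the cpr5 mutant (stock N3770) against the 2 arrays of the Columbia wild type, WT (stock N1092). These 4 arrays belong to a series of 12 Affymetrix ATH1 arrays in 6 groups of 2. The other groups are npr1, the double mutant cpr5npr1, and lines that add scv1 to cpr5 or svi1 to cpr5npr1. Growth was the same for all groups, at 23 C with 70% humidity and a 16 h photoperiod. The labels give no allele number for cpr5, name no promoter or transgene, and leave unsaid whether the arrays of a group hold RNA from different plants. The p-values therefore cover array-to-array spread alone, part or all of which may be technical. The comparison took in every probe set other than the controls, 22746 of 22810 on the array, and 15923 of them were bright enough to be tested.

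CPR5 is a membrane protein of the plant nuclear envelope and nuclear pore. Plants without it hold defence programmes switched on without a pathogen, form small spontaneous lesions, make poorly branched trichomes, stay small and lose green tissue early. Much of their defence state depends on salicylic acid, which acts through NPR1, a co-activator of pathogenesis-related genes, and a further share is known to run without NPR1. In a bulk sample, more cells of a kind and more RNA per cell cannot be told apart.

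The mutated gene itself could not be used as a check on the labels, because no probe set is assigned to CPR5, NPR1, PR1, PR2 or PR5 in the annotation used here. The label of green aerial tissue could be checked. The 9 tested nuclear genes of the photosystems and their antenna or activation proteins had signals between 171 and 6054 on the 4 arrays, where the median signal of an array ranged from 36.8 to 43.5. The 2 named root-hair expansins, EXPA7 and EXPA18, were too dim to be tested, with highest signals of 10.5 and 19.3. Stomatal lineage factors were present: FMA read 84.1 and 62.8 in WT against 55.6 and 54.8 in cpr5, and SPCH read 32.1 and 38.8 against 22.9 and 20.2, neither difference passing the test. Markers of seed, flower and meristem had no named probe set. The trichome list is given with the other lists.

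A probe set was called when limma's moderated test gave a Benjamini-Hochberg adjusted p below 0.05 over all 15923 tested probe sets. Of these, 1387 were called (8.71%), 1044 of them higher in cpr5 (6.56%) and 343 lower (2.15%). The cpr5 and WT arrays did not overlap in 7770 of the tested sets, among them all 1387 called sets. Non-overlap of a called gene is therefore no further evidence for its change. A call that also stood when each of the 4 arrays was left out in turn is described below as held, and 373 of the higher calls (2.34% of the tested sets) and 30 of the lower calls (0.188%) were held. Among the tested sets the rises were larger than the falls. The median log2 change was 1.52 among the higher calls and -0.86 among the lower calls, against 0.02 over all tested probe sets. On the signal as deposited, a difference of at least 4-fold was seen in 358 higher and 21 lower calls. Dim sets were left out by their mean over all arrays of the series, most of which carry cpr5. A set dim only in WT could therefore pass more readily than a set dim only with cpr5. Without this filter 983 calls were higher and 288 lower, and the sizes of those changes were not compared. This test did not pair the arrays by replicate number. With the replicate number as a block, which takes the pairing in, the calls numbered 2773 (17.4%). Unless another run is named, the calls below are those of the unpaired fit.

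**Figure D1:**
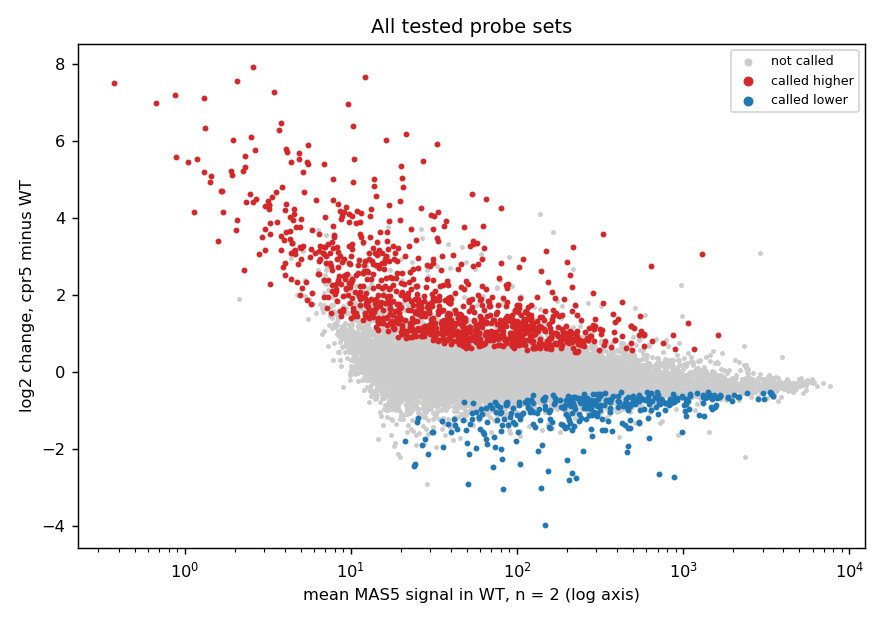
Each point is 1 of the 15923 tested probe sets, plotted by its mean MAS5 signal in WT (log axis, 2 arrays) and its log2 change, cpr5 minus WT; called probe sets are coloured. Most of the large rises start from low signal in WT (median 35.5 among the higher calls), and the falls start from brighter signal (median 266).

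Among the tested sets the starting level differed between the directions. The part of the filter on dim sets in this was not tested. The median WT signal was 35.5 for the higher calls, 266 for the lower calls and 73.3 for all tested sets. For 191 of the higher calls at least 1 WT array lay below 7.76, the 95th percentile of the 27 unspiked bacterial control sets, which serves here as the background bound. Where both arrays of the dim group lay below it, only a lowest possible fold is given. The direction split also moved with scaling. Scaling every array to 1 median shifted the median of all tested sets by -0.19 relative to the deposited values, to -0.17, and the share of calls that were higher went from 75.3% to 45.8%; with quantile normalization it was 69.2%.

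Of the 1387 called probe sets, 653 are assigned to 1 gene, 497 among the higher and 156 among the lower calls. The functions below are told mainly through 88 called genes that carry a name in the annotation or belong to a list, 65 higher and 23 lower, of which 28 were held. The called genes GRXC1, MSRB5 and AT1G68570 are described beside them and are not in these counts. Counts of calls in a list are to be read against the shares over all tested sets, 6.56% higher and 2.15% lower. Counts with the replicate block have another share to be read against, 17.4% called in either direction. The split of the block's calls by direction is given in the last paragraph. A list with 1 call can lie near those shares. Gene names follow that annotation. A gene given here only by its locus code has no function assigned to it.

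Proteins of antimicrobial families and enzymes that cut sugar chains contained the largest rises among named genes. OSM34, an osmotin of the thaumatin-like family with antifungal relatives, read 3.92 and 1.27 in WT against 430 and 685 in cpr5. Both WT arrays lay below the background bound, so the rise was at least 70-fold (adjusted p = 7.32e-05). CHI, annotated as a putative chitinase, an enzyme that cuts fungal wall chitin, read 23.2 and 9.49 against 768 and 1226, a log2 change of 6.03 (SE 0.535, adjusted p = 9.79e-05). ChiC, the other tested gene of the chitinase and glucanase list, was not called (log2 change 0.87, adjusted p = 0.11). ENGase85A, which releases N-linked glycans from glycoproteins, read 17.7 and 16.6 against 56.8 and 50.6, a log2 change of 1.65 (SE 0.248). The cpr5 arrays lay above the WT arrays for each of these genes, and all 3 calls were held.

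The small cysteine-rich defence peptides did not move as a class. Of 8 tested genes on the list of jasmonate and ethylene defence, PDF1.4, a plant defensin, was called higher (14.3 and 10.8 against 53.6 and 30.2, log2 change 1.69, SE 0.418), and THI2.2, a thionin, was called lower (291 and 1137 against 125 and 68.1, log2 change -2.64, SE 0.505). The list's median log2 change was -0.61. That list was drawn by name and also took in PDF1A (-0.73) and PDF1B (-0.54), which are not defensins. Its median therefore does not describe jasmonate defence alone. PDF1.2, the usual marker of jasmonate and ethylene defence, read 4.48 and 15.2 in WT and 10.6 and 20 in cpr5, overlapping values with an adjusted p of 0.799. EULS3, a lectin, was called at a log2 change of 1.11 (SE 0.244). Without cpr5 replicate 1 the adjusted p of PDF1.4 rose to 0.221, without cpr5 replicate 2 that of THI2.2 to 0.0846 and that of EULS3 to 0.112. With only the 4 arrays of cpr5 and WT in the fit, 3 of the 6 calls in this and the preceding paragraph remained.

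Some secreted proteases and peroxidases were called higher. SBT3.3, SBT3.5 and SBT4.13 are subtilases, serine proteases of the cell exterior, and SBT3.3 is known for priming immune genes. SBT3.5 read 23 and 15.7 in WT against 146 and 217 in cpr5, a log2 change of 3.23 (SE 0.323, adjusted p = 0.000195). SBT3.3 read 2.56 and 1.52 against 17.8 and 36.9, at least 3.3-fold higher, and SBT4.13 read 6.78 and 3.1 against 40 and 47.4, at least 5.61-fold higher. These were the 3 higher calls among 24 tested proteases and protease inhibitors, a list whose median log2 change was 0.25, and none was called lower. Of 3 tested class III peroxidases, enzymes that cross-link wall phenolics and generate or consume peroxide, 2 were called; PRXR1 was not (log2 change -0.17). AT5G64120, annotated as peroxidase 71 (PRX71), read 13.3 and 3.83 against 55.6 and 59.8, with 1 WT array under the background bound, and had a log2 change of 3.02 (SE 0.453). PRX52, known for a part in lignin formation, read 14.8 and 10.2 against 52.6 and 110, a log2 change of 2.63 (SE 0.381). All 5 calls were held, and all 5 genes were also called in cpr5npr1 against npr1; with only the 4 arrays fitted, SBT3.3 (0.0621) and AT5G64120 (0.0587) missed the threshold.

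**Figure D2:**
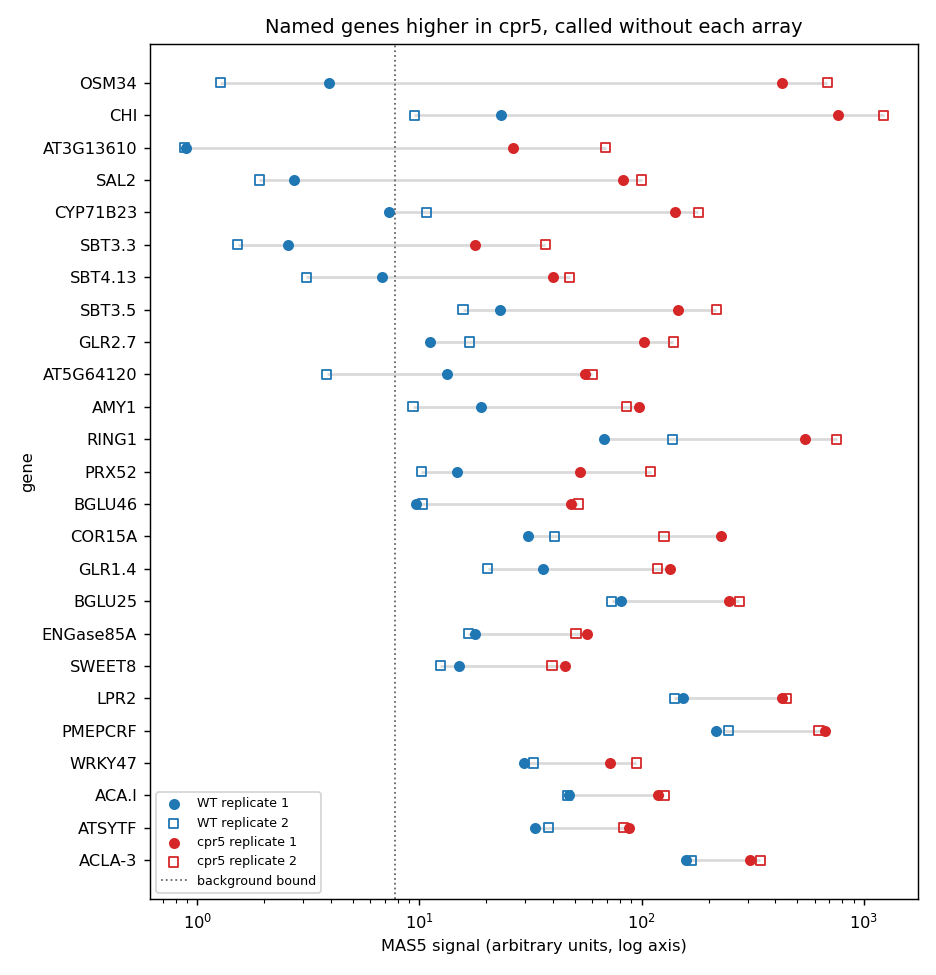
Dots and squares give the MAS5 signal (log axis) of each of the 4 arrays for the 25 named genes that were higher in cpr5 with a held call, ordered by log2 change. In every row both cpr5 arrays lie above both WT arrays, as for every higher call. For OSM34, AT3G13610, SAL2, SBT3.3 and SBT4.13 both WT arrays lie below the dotted background bound of 7.76.

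Pectin methylesterases, which strip methyl groups from wall pectin and so change its stiffness and its supply of signalling fragments, changed in both directions. All 3 tested genes of the pectin list were called. ATPMEPCRB, also named PME41, read 69.6 and 18.4 in WT against 279 and 186 in cpr5 (log2 change 2.67, SE 0.495). PMEPCRF read 215 and 245 against 669 and 628, a log2 change of 1.5 (SE 0.198). PME61 went the other way, at 112 and 146 against 49.3 and 45.7 (log2 change -1.43, SE 0.224). The groups did not overlap for any of the 3 genes, and the calls of PMEPCRF and PME61 were held; that of ATPMEPCRB gave an adjusted p of 0.0722 without cpr5 replicate 1.

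Beta-glucosidases free sugar-capped compounds, among them the glucosides of lignin precursors. Of 12 tested, 3 were called higher and none lower, and the list's median log2 change was 0.24. BGLU46 read 9.64 and 10.3 in WT against 48.1 and 51.9 in cpr5, a log2 change of 2.33 (SE 0.305, adjusted p = 0.00113). BGLU25 read 80.8 and 73.2 against 247 and 275, a log2 change of 1.76 (SE 0.248). BGLU45, which like BGLU46 is known to act on lignin precursor glucosides, had both WT arrays under the background bound and was at least 2.93-fold higher. BGLU46 and BGLU25 were held, and BGLU45 gave an adjusted p of 0.117 without cpr5 replicate 2.

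Other wall genes changed less. CSLC04, a synthase of the xyloglucan backbone, was called at a log2 change of 1.08 (SE 0.194), and TBL23, of a family that acetylates wall polymers, at 1.06 (SE 0.234). SAH7 was lower, at 672 and 600 in WT against 332 and 307 in cpr5 (log2 change -0.99, SE 0.215). Without cpr5 replicate 1 the adjusted p of CSLC04 was 0.0597 and that of TBL23 was 0.15, and without cpr5 replicate 2 that of SAH7 was 0.108. Expansins and xyloglucan-modifying enzymes, which loosen walls during growth, had no call among 18 tested genes, or 1 lower with the replicate block, and a median log2 change of 0.04, with single genes between -1.67 and 1.55.

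Enzymes of small defence molecules included large rises, the first of them from a WT signal below the background bound. AT3G13610, annotated as F6'H1, catalyses the step that commits phenylpropanoids to the coumarin scopoletin, a fluorescent antimicrobial and iron-binding compound. Its signal was 0.89 and 0.879 in WT against 26.5 and 69 in cpr5, at least 5.51-fold higher (adjusted p = 0.00104), a held call that was lost when 32 was added to every signal (0.093). The gene was too dim to be tested under the 50% filter. CYP71B23, a cytochrome P450, read 7.28 and 10.8 against 142 and 180, a log2 change of 4.17 (SE 0.3, adjusted p = 4.34e-05). It was the only call among 18 tested P450 genes. Of 29 tested UDP-glycosyltransferases, 1 was called in each direction: UGT84A4, of a clade that glucosylates phenylpropanoid acids, was higher (log2 change 1.44, SE 0.343), and UGT71C5 was lower (-0.95, SE 0.225). JRG21, named for its regulation by jasmonate, read 14.9 and 4.52 against 58.9 and 107 (log2 change 3.27, SE 0.557). Without 1 array these last 3 calls ended, with adjusted p of 0.162 for UGT84A4 without cpr5 replicate 1, and of 0.176 for UGT71C5 and 0.0548 for JRG21 without cpr5 replicate 2.

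Aliphatic glucosinolates, the mustard oil glucosides made from methionine, were represented by 2 tested genes and both were called lower. BCAT4, which starts the chain elongation of methionine, read 1367 and 1525 in WT against 958 and 971 in cpr5 (log2 change -0.58, SE 0.141), and AT2G31790, a member of that list, read 336 and 386 against 217 and 211 (log2 change -0.76, SE 0.176). Both calls ended without single arrays, at an adjusted p of up to 0.147 for BCAT4 without cpr5 replicate 1 and of up to 0.127 for AT2G31790 without cpr5 replicate 2. With quantile normalization BCAT4 also missed the threshold (0.0929). UGT74B1, which glucosylates the glucosinolate core, read 310 and 409 against 304 and 341, overlapping values.

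Calcium signalling had more higher calls than any other list, though the lists differ in size. Over all tested sets, 6.56% were called higher. Of 15 tested genes, 5 were called higher and none lower, and the median log2 change was 0.62. The glutamate receptor-like channels pass calcium into the cytosol, and 3 of them were called. GLR2.7 read 11.2 and 16.8 in WT against 102 and 139 in cpr5, a log2 change of 3.11 (SE 0.252, adjusted p = 6.03e-05). GLR1.4 read 36.1 and 20.3 against 134 and 118, a log2 change of 2.21 (SE 0.349). GLR2.8, a neighbour of GLR2.7 by locus code, had both WT arrays under the background bound and was at least 4.82-fold higher. The groups did not overlap for these channels, as for every called set.

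The remaining calls of the calcium list were CML41 and ACA.l. CML41, a calmodulin-like sensor known from plasmodesmal closure in immunity, read 7.15 and 30.7 in WT against 89 and 89.5 in cpr5 (log2 change 2.59, SE 0.586), with 1 WT array under the background bound. ACA.l, annotated as an autoinhibited calcium ATPase, read 47.1 and 46.4 against 118 and 126, a log2 change of 1.38 (SE 0.166, adjusted p = 0.000645). It is on the list by that name only, and its locus, AT1G13210, is not a known calcium pump. ATSYTF, a synaptotagmin-type membrane tether that is not on the list, read 33.2 and 38 against 88.1 and 82.7, a log2 change of 1.26 (SE 0.186). GLR2.7, GLR1.4, ACA.l and ATSYTF were held, whereas the adjusted p of GLR2.8 was 0.0654 without cpr5 replicate 1 and that of CML41 reached 0.108. Of the 6 genes, 5 were also called in cpr5npr1 against npr1.

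**Figure D3:**
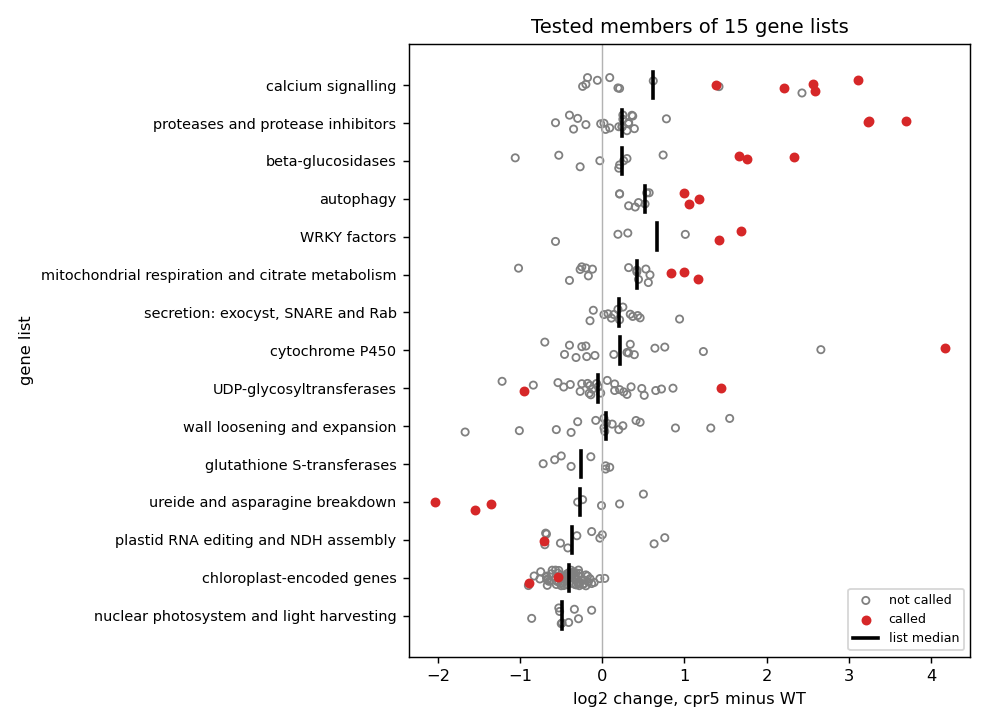
Each point is a tested gene of 1 of 15 gene lists, placed by its log2 change, cpr5 minus WT; filled points were called, and the bar marks the list median. Calls sit on the right for calcium signalling (5 of 15), proteases (3 of 24), beta-glucosidases (3 of 12) and autophagy (3 of 11), and on the left for ureide and asparagine breakdown (3 of 8). Chloroplast-encoded genes had 2 lower calls of 69, where 2.15% of all tested sets were called lower. With the replicate block 17 of them were called lower, where 17.4% of all tested sets were called in either direction.

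Among regulators of the immune response, RING1 is a membrane-bound RING ubiquitin ligase known to promote programmed cell death. It read 67.8 and 138 in WT against 543 and 755 in cpr5, a log2 change of 2.73 (SE 0.306). The call was held, and its adjusted p, 0.000412, was the lowest of the 11 regulators described here. The salicylic acid list had 3 tested genes, of which GRX480, a glutaredoxin that binds TGA factors, was called at a log2 change of 2.95 (SE 0.669) and AT5G52810 at 1.83 (SE 0.332). SAG101, which works with EDS1, read 16.8 and 22.4 against 46.1 and 39.8 without passing the test (adjusted p = 0.0606, and 0.0394 with the replicate block). The adjusted p of GRX480 was 0.109 and that of AT5G52810 was 0.061 without cpr5 replicate 2.

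WRKY factors bind W-boxes in the promoters of defence and senescence genes, and 2 of 6 tested were called higher. WRKY47 read 29.4 and 32.7 in WT against 72.3 and 94.6 in cpr5 (log2 change 1.42, SE 0.207, held), and WRKY53, a known driver of leaf senescence, read 27.3 and 30.6 against 82.2 and 106 (log2 change 1.69, SE 0.345). WRKY53 had an adjusted p of 0.1 without cpr5 replicate 2. Of the other tested members, WRKY6 read 17.5 and 38.3 against 47.8 and 56.8, and WRKY22 read 62.8 and 75.1 against 48.1 and 44.5, neither called. The list's median log2 change was 0.66.

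The U-box ligases PUB22 and PUB24, which are known to damp immune signalling together, went in opposite directions. PUB24 read 16.4 and 31.8 in WT against 63.7 and 51.8 in cpr5 (log2 change 1.33, SE 0.303), and PUB22 read 29.4 and 50.7 against 12.5 and 13.9 (log2 change -1.55, SE 0.39). They were the 2 calls among 21 tested ubiquitin ligases and proteasome genes, a list with a median log2 change of 0.06. Neither was held: without cpr5 replicate 1 the adjusted p was 0.148 for PUB24 and 0.162 for PUB22, and PUB22 also missed the threshold without the filter on dim sets (0.0547). Smaller rises were called for RHF1A, a RING ligase (log2 change 1.13), SGT1A, a co-chaperone of immune receptors (0.71), PIA1, a protein phosphatase named for induction by the effector AvrRpm1 (0.72), and TET8, a tetraspanin of exosome-like vesicles (0.77). Each of these 4 calls ended without cpr5 replicate 1 (adjusted p 0.0549, 0.103, 0.129 and 0.186 in that order), and SGT1A, PIA1 and TET8 also missed the threshold once arrays were scaled to 1 median (0.0905, 0.0532 and 0.0823).

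Sulfur metabolism changed in both directions. The list was drawn up after values were seen, so its counts only describe these genes: of 8 tested, 3 were higher and 2 lower. SAL2, of a phosphatase family that removes phosphate from sulfur-containing nucleotides and inositol phosphates, read 2.72 and 1.9 in WT against 82.1 and 100 in cpr5, at least 11.7-fold higher (adjusted p = 5.88e-05, held). ATP sulfurylase activates sulfate, and its genes diverged. APS4 read 55.1 and 83.1 against 225 and 157 (log2 change 1.48, SE 0.27). APS3 read 268 and 285 against 148 and 148 (log2 change -0.9, SE 0.184). SIR, the sulfite reductase of plastids, was lower at 862 and 981 against 541 and 627 (log2 change -0.66, SE 0.144), and SUFE2, which activates sulfur transfer to iron-sulfur clusters, was at least 1.83-fold higher, with both WT arrays under the background bound.

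Only the call of SAL2 was held among these. Without cpr5 replicate 1 the adjusted p was 0.0743 for APS4, 0.0787 for APS3 and 0.148 for SIR, and without cpr5 replicate 2 it was 0.0968 for SUFE2. APS3 was one of 5 named genes whose sign differed in the npr1 background, where its log2 change was 0.7 (adjusted p = 0.055).

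A list for enzymes that release nitrogen from purines and asparagine was also made after values were seen. Of its 8 tested genes, 3 were called lower and none higher. ALN, the allantoinase, read 115 and 133 in WT against 49.7 and 47.1 in cpr5, a log2 change of -1.35 (SE 0.184, adjusted p = 0.00145, held). AAH, the allantoate amidohydrolase of the following step, read 187 and 78.9 against 42 and 20.8 (log2 change -2.04, SE 0.441). ASPGB1, an asparaginase, read 59.2 and 143 against 29.1 and 34 (log2 change -1.55, SE 0.409). No cpr5 array reached a WT array for these 3 genes, as in every lower call.

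The other 5 genes of the list were not called. UGLYAH, the last ureide enzyme, read 30.5 and 30 against 31.1 and 29.2, and ASPGA1, the other asparaginase, read 89.1 and 111 against 115 and 115. URE had a log2 change of 0.5 and FAC1 of -0.24. TTL, at -0.3, is the gene AT4G24900, which the list took in by its symbol and which is not a ureide enzyme. AAH and ASPGB1 were not held, with adjusted p of 0.14 for AAH without cpr5 replicate 2 and of 0.194 for ASPGB1 without cpr5 replicate 1. ASPGB1 also missed the threshold without the filter on dim sets (0.0575). Of the NRT1/PTR transporters, AT3G21670 (NPF6.4) was lower at 901 and 798 against 470 and 501 (log2 change -0.8, SE 0.172) and AT1G68570 (NPF3.1) was higher at 242 and 149 against 384 and 393 (log2 change 1.03, SE 0.258). Both calls ended without cpr5 replicate 1, at 0.111 and 0.14.

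Described next are 9 of the 23 lower genes, which act in plastids or photorespiration and were chosen after their values were seen. They are not every lower gene with a plastid role, as SIR is described with sulfur metabolism. ndhJ, a chloroplast-encoded subunit of the NADH dehydrogenase-like complex of thylakoids, read 1517 and 1403 in WT against 833 and 740 in cpr5, a log2 change of -0.89 (SE 0.139, adjusted p = 0.00293), a held call. NdhL, a nuclear subunit of the same complex, read 607 and 609 against 376 and 367 (log2 change -0.71, SE 0.175). SBPASE, a Calvin cycle phosphatase, read 2969 and 3156 against 1991 and 1790 (log2 change -0.7, SE 0.149). HPR, the hydroxypyruvate reductase of photorespiration, had a log2 change of -0.56 (SE 0.152). TAPX, the thylakoid ascorbate peroxidase that removes peroxide, had -0.88 (SE 0.195), and CYTC6A, a thylakoid cytochrome, had -1.39 (SE 0.281). LIL3:2, a light-harvesting-like protein linked to chlorophyll synthesis, had -0.64 (SE 0.17), GPDHp, the plastid glycerol-3-phosphate dehydrogenase, -0.94 (SE 0.188), and atpH, a chloroplast-encoded ATP synthase subunit, -0.54 (SE 0.142).

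As in every lower call, the cpr5 arrays were below the WT arrays for all 9 of these genes, and the calls were fragile. Only ndhJ was held, and with only the 4 arrays fitted none of the 9 passed (ndhJ at 0.0523). Without cpr5 replicate 2, 1 of the 9 calls remained, and without WT replicate 1, 3 did. Quantile normalization left 4 of the 9, with SBPASE at 0.19, HPR at 0.117, atpH at 0.435, LIL3:2 at 0.092 and NdhL at 0.0559.

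Whole plastid lists lay below 0 with few calls. Of 69 tested chloroplast-encoded genes, 68 had a log2 change below 0 (median -0.4) and 2 were called lower, or 17 with the replicate block. All 9 nuclear photosystem genes lay below 0 (median -0.49) and none was called, or 3 with the block. Bright probe sets as a whole shifted the same way. The 551 tested sets with a mean signal of at least 1000 had a median log2 change of -0.31, and 85.5% of them lay below 0. The 18 hybridisation spikes, bacterial transcripts added to the sample, had a median of -0.39. After quantile normalization the median was -0.05 for the bright sets, -0.18 for the chloroplast-encoded list and -0.16 for the photosystem list. Then 60 of the 69 chloroplast-encoded and 8 of the 9 photosystem genes lay below 0, as did 59.7% of the bright sets. The part that the shift of bright sets had in the plastid lists was not tested.

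**Figure D4:**
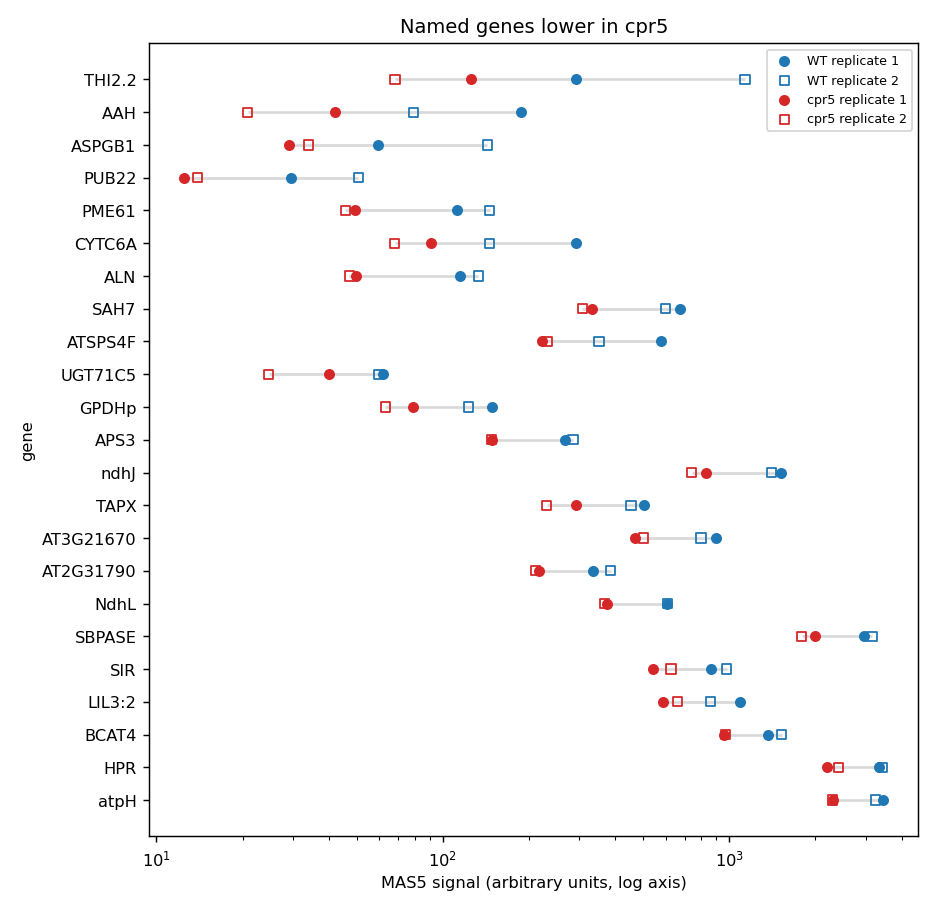
Dots and squares give the MAS5 signal (log axis) of each of the 4 arrays for 23 named genes called lower in cpr5, ordered by log2 change from THI2.2 (-2.64) to atpH (-0.54). Both cpr5 arrays lie below both WT arrays in each row; 3 of the calls, PME61, ALN and ndhJ, were held.

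Of 17 tested respiratory and citrate-handling genes, a list made after values were seen, 3 were called higher and none lower, or 3 and 2 with the replicate block. The list's median log2 change was 0.42, and 7 genes lay below 0. ACLA-3, a subunit of ATP-citrate lyase, which makes cytosolic acetyl-CoA, read 159 and 167 in WT against 307 and 342 in cpr5, a log2 change of 1 (SE 0.141, adjusted p = 0.00179, held). NDB2, an alternative NADH dehydrogenase on the outer face of the inner mitochondrial membrane, read 51.3 and 52.1 against 117 and 116 (log2 change 1.17, SE 0.256), and SDH2-1, the iron-sulfur subunit of succinate dehydrogenase, read 286 and 251 against 458 and 499 (log2 change 0.84, SE 0.188). Another subunit gene, ACLA-2, read 380 and 178 against 141 and 117, lower but not called (adjusted p = 0.0573, and 0.0269 with the replicate block). ALDH7B4, an aldehyde dehydrogenase that clears reactive aldehydes under stress, was called at a log2 change of 0.95 (SE 0.198). NDB2 (0.102) and ALDH7B4 (0.11) were lost without cpr5 replicate 1 and SDH2-1 (0.13) without cpr5 replicate 2.

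Recycling of cell contents was represented by autophagy. All 11 tested members lay above 0 under each of the 3 scalings (median log2 change 0.52 as deposited), and 3 were called higher, or 6 with the replicate block. Over all tested sets, 52.2% lay above 0 as deposited. The called genes encode ATG8 proteins, which coat autophagosomes: ATG8H read 42.8 and 51.7 in WT against 90.9 and 126 in cpr5 (log2 change 1.18, SE 0.211), APG8A, also named ATG8A, read 129 and 106 against 223 and 266 (1.06, SE 0.202), and ATG8D read 66.1 and 63.8 against 101 and 164 (0.99, SE 0.254). The brightest family member, ATG8F, read 674 and 841 against 917 and 822, overlapping values. Without cpr5 replicate 2 the 3 calls ended (adjusted p 0.068 for ATG8H, 0.0826 for APG8A and 0.256 for ATG8D). ATG8D also missed the threshold with quantile normalization (0.0889) and when arrays were scaled to 1 median (0.0841). All 3 genes were called in cpr5npr1 against npr1, with log2 changes of 1.55 for ATG8H, 1.2 for APG8A and 1.07 for ATG8D.

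4 other genes of breakdown and sorting, chosen after their values were seen, were called higher. AMY1, a secreted alpha-amylase, read 18.9 and 9.36 in WT against 97.1 and 85.8 in cpr5, a log2 change of 2.78 (SE 0.358, adjusted p = 0.00101, held). DPL1, which breaks down sphingoid base phosphates, was called at a log2 change of 1.54 (SE 0.31). VPS20.1 and AT2G36680 (VPS37-2), parts of the ESCRT machinery that sorts membrane proteins for degradation, were called at 1.04 (SE 0.256) and 0.87 (SE 0.209). Without cpr5 replicate 1 the adjusted p was 0.0894 for DPL1, 0.117 for VPS20.1 and 0.168 for AT2G36680, and the ESCRT genes also missed the threshold with quantile normalization (0.0843 and 0.0688) and with arrays scaled to 1 median (0.0662 and 0.0627). VPS20.1 was the only call among 9 tested genes of the vacuolar sorting list, whose median log2 change was 0.06 as deposited and -0.13 with arrays scaled to 1 median. SNARE, exocyst and Rab genes of secretion had no call among 14 tested, or 1 higher with the replicate block, with a median log2 change of 0.2.

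Protein folding in the endoplasmic reticulum had 2 higher calls among 4 tested genes. ATERDJ3B, a co-chaperone needed for immune receptors, read 206 and 252 in WT against 413 and 552 in cpr5 (log2 change 1.07, SE 0.211), and CRT1b, a calreticulin, read 510 and 472 against 657 and 813 (0.57, SE 0.157). BZIP60, a transcription factor of the unfolded protein response, read 112 and 192 against 248 and 327, just outside the threshold (adjusted p = 0.0502, and 0.0146 with the replicate block). Hsp70-2, a cytosolic chaperone of the heat shock family, was called at a log2 change of 1.41 (SE 0.343). No call was held: the adjusted p reached 0.101 for ATERDJ3B and 0.287 for CRT1b without cpr5 replicate 2 and 0.15 for Hsp70-2 without cpr5 replicate 1. CRT1b also missed the threshold when arrays were scaled to 1 median (0.181).

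A few genes of the growth hormones were called. GH3.3 and WES1 (GH3.5) join amino acids to auxin, and WES1 can also use salicylic acid. GH3.3 read 53.3 and 57 in WT against 112 and 168 in cpr5 (log2 change 1.32, SE 0.274), and WES1 read 123 and 128 against 245 and 244 (0.96, SE 0.196). They were the 2 calls among 7 tested auxin genes. The gibberellin receptors GID1B and GID1A, the 2 calls among 8 tested genes of gibberellin, cytokinin and brassinosteroid, were called at log2 changes of 1.52 (SE 0.391) and 0.64 (SE 0.165), and FLDH, a farnesol dehydrogenase that affects abscisic acid responses, at 0.88 (SE 0.225). These 5 calls ended without cpr5 replicate 2, at adjusted p of 0.125 for GH3.3, 0.0756 for WES1, 0.168 for GID1B, 0.125 for GID1A and 0.168 for FLDH. Scaling to 1 median also ended the calls of GID1B (0.053), GID1A (0.102) and FLDH (0.0685).

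Of the cold and drought genes, 2 of 8 tested were called higher. COR15A, a protein that protects chloroplast membranes during freezing, read 30.9 and 40.6 in WT against 228 and 126 in cpr5, a log2 change of 2.26 (SE 0.27, adjusted p = 0.000616, held). COR15B, its neighbour by locus code, had a log2 change of 0.84 (SE 0.208) and an adjusted p of 0.229 without cpr5 replicate 1, 0.0824 with quantile normalization and 0.0707 with arrays scaled to 1 median. The plants were not cold-treated, as far as the labels say.

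Sugar export and cleavage changed in a few genes. SWEET8, a sugar exporter of the cell membrane, read 15 and 12.4 in WT against 45.1 and 39.5 in cpr5 (log2 change 1.63, SE 0.254, held, and at 0.0517 with only the 4 arrays fitted). SWEET13, which loads sucrose for export, was called at 1.19 (SE 0.257). They were the 2 calls among 12 tested sugar transporters, whose median log2 change was -0.03. cwINV6, a fructan exohydrolase of the wall invertase family, was called at 1.85 (SE 0.438), and ATSPS4F, a sucrose phosphate synthase, was lower at 580 and 351 against 222 and 232 (-0.99, SE 0.236). Without cpr5 replicate 1 the adjusted p was 0.14 for SWEET13, 0.188 for cwINV6 and 0.14 for ATSPS4F.

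LPR2, a multicopper oxidase that oxidises iron and takes part in the root response to low phosphate, was among the steadiest changes. It read 154 and 140 in WT against 426 and 449 in cpr5, a log2 change of 1.58 (SE 0.174, adjusted p = 0.000373). It stayed called under every alternative run. Redox enzymes moved singly: GRXC1, a glutaredoxin, was called at a log2 change of 1.37 and MSRB5, a methionine sulfoxide reductase, at -1.23, and both were lost without cpr5 replicate 2 (adjusted p 0.172 for GRXC1 and 0.125 for MSRB5). GRXC1 also missed the threshold with quantile normalization (0.0571) and when arrays were scaled to 1 median (0.0622). Glutathione S-transferases, which detoxify by adding glutathione, had no call among 8 tested, or 1 lower with the replicate block, and a median log2 change of -0.26.

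The largest held changes included genes without an assigned function here. Among the 12 largest rises, AT4G00700 read 1.46 and 8.32 in WT against 168 and 154 in cpr5, AT3G18250 read 18.7 and 2.17 against 296 and 292, and AT5G52760 read 3.13 and 5.66 against 168 and 207. AT1G26390 read 6.98 and 3.92 against 193 and 272, and AT1G10340 read 2.21 and 11.6 against 201 and 231. At least 1 WT array of each of these 5 genes lay below the background bound, and both did for AT5G52760 and AT1G26390, which were at least 24-fold and 29.5-fold higher. Also among these rises were AT1G30700 (4.09 and 0.914 against 101 and 176), AT2G44240 (2.09 and 6.21 against 274 and 133) and AT3G47480 (1.11 and 8.63 against 125 and 205).

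Among the 12 largest held falls, AT1G06830 read 400 and 531 in WT against 166 and 172 in cpr5 (log2 change -1.45), AT5G01015 read 395 and 458 against 187 and 155 (-1.32), and AT4G28290 read 383 and 319 against 133 and 161 (-1.26). These falls begin at a signal far above background. AT1G32470 read 1606 and 1513 against 849 and 838 (-0.89), and AT1G33340 read 97.2 and 91.8 against 39.3 and 38.4 (-1.28). AT4G25780 and AT1G11670 fell by 1.86 and 1.47 on the log2 scale, and AT5G33370 and AT3G46490 by 2.29 and 2.26.

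Several classes had no call in either direction. They were bHLH factors (8 tested, median log2 change -0.18), bZIP factors (17, 0.19), MADS-box factors (9, 0.04), histones (7, 0.2), deubiquitinating enzymes (12, 0.04), DNA repair genes (8, 0.01), chromatin remodelling genes (6, 0.09), tubulin and actin (8, -0.13) and cell cycle genes (4, -0.3). Flavonoid genes (4, 0.16), chlorophyll and carotenoid genes (5, -0.24), the trichome list (3, -0.35), jacalin lectins (4, 0.69) and the metal and phosphate list (3, -0.19) had none either. The trichome list includes AT2G31110, which is also on the wall acetylation list. The metal and phosphate list includes FRO1 at AT5G67590, which is not a ferric reductase. With the replicate block, tubulin and actin had 1 higher and 2 lower calls, bZIP factors and flavonoid genes 1 higher each, and chlorophyll and carotenoid genes 1 lower. A missed threshold with 2 arrays a group does not show that these genes were alike in cpr5 and WT. DFR, an anthocyanin enzyme, read 226 and 213 in WT against 477 and 399 in cpr5 with an adjusted p of 0.157, or 0.0167 with the replicate block, and SIM, the SIAMESE cell-cycle inhibitor needed for trichome formation, had a log2 change of -1.07. Starch and sucrose genes had no call among 4 tested, and QQS, which lowers starch content, read 0.897 and 329 in the 2 WT arrays, so that no change could be read from it.

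The same mutation was also measured on other arrays, in cpr5npr1 against npr1, where 815 probe sets were called (5.12%). The log2 changes of that comparison share no array with those of cpr5 against WT. Its p-values come from the same model, whose spread for each probe set is pooled over all groups. They therefore also draw on the cpr5 and WT arrays, and the counts of sets also called are not an independent repeat. Of all 1044 higher calls in cpr5, 1032 had the same direction there and 578 were also called, and of all 343 lower calls, 324 and 80. Of the 373 held rises, 372 had the same direction there and 337 were also called, with a median log2 change of 2.13 against 2.63. Of the 30 held falls, 29 had the same direction and 19 were called. Of the 88 named genes, 83 had the same direction and 45 were called. The share of all tested sets with the same direction is not given, so these counts have no share to be read against. Median signal was higher with cpr5 in both comparisons. It was 43.5 and 41.4 in cpr5 against 37.4 and 36.8 in WT, and 43.5 and 41.3 in cpr5npr1 against 38.8 and 37.9 in npr1. The part of this in the shared directions was not tested. Genes called in cpr5 whose change was near 0 on the npr1 background included GH3.3 (-0.12), WES1 (0.19), ndhJ (0.12) and UGT84A4 (0.25), but a difference between the backgrounds was not called for any of them.

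**Figure D5:**
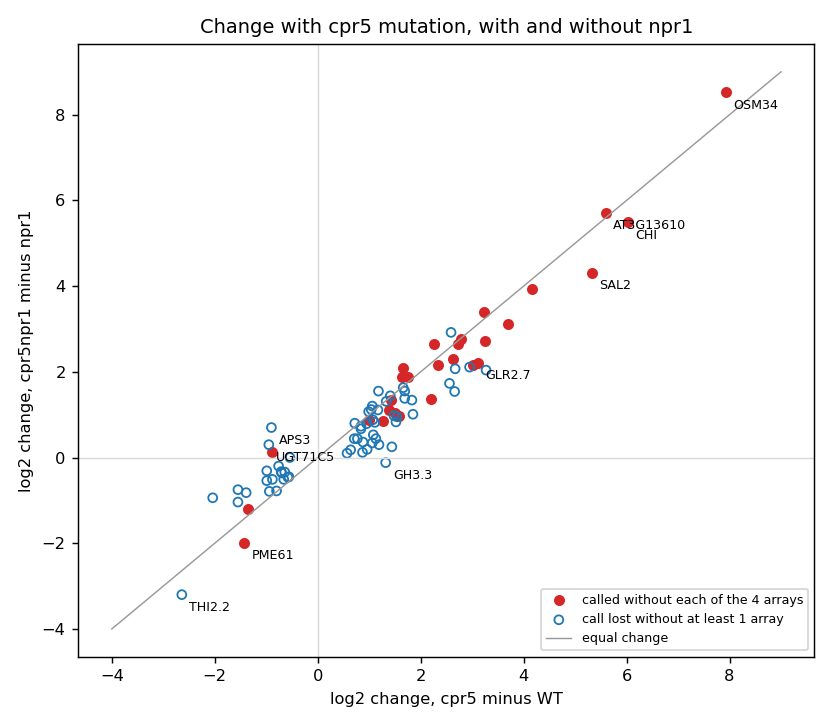
Each point is 1 of 88 named genes, with its log2 change in cpr5 minus WT on the horizontal axis and in cpr5npr1 minus npr1 on the vertical axis; filled points are held calls. THI2.2 lies at -2.64 and -3.2, and 83 of 88 genes share their sign; for OSM34 and other genes under the background bound in the dim group the plotted change is that of the deposited signal and is no measured fold.

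The difference between the backgrounds was tested directly as the interaction of cpr5 and npr1, and 4 probe sets were called (0.0251%), with 507 at an unadjusted p below 0.05 (3.18%). AT2G23680 read 3.46 and 2.96 in WT and 65.2 and 56.3 in cpr5, against 19.8 and 22.3 in npr1 and 68 and 63.9 in cpr5npr1, an interaction of -2.59 on the log2 scale (adjusted p = 0.0393). Both WT arrays lay below the background bound, which limits what that value measures. No interaction call remained without cpr5 replicate 1 or without cpr5 replicate 2, and 164 were made without WT replicate 2.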

How the data were processed

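The deposited values are linear signal intensity from MAS5, which the submitters' processing notes name without version or settings. The trimmed mean without the lowest and highest 2% of values was 100.01 in every array. Signal was used as deposited, as log2, after leaving out 64 control sets and the dimmest 30% of the rest by mean over 12 arrays. Groups follow the sample titles.

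The test used limma 3.58.1 (R 4.3.3) with 1 model of 6 group means with an intensity trend, two-sided, with Benjamini-Hochberg adjustment; every adjusted p comes from it. Folds are powers of the log2 change. Same-numbered arrays deviated together, by the titles' replicate numbers (r = 0.272 for cpr5 and WT, 0.175 to 0.363 over 15 pairs of groups). The main test does not pair them, and the block is an alternative that does. The number of arrays limits the precision. In data simulated for cpr5 versus WT over 15923 genes, 31 of 100 changes of log2 1 and 85 of 100 of log2 2 were recovered.

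The annotation assigns 13513 probe sets to 1 gene, 503 to several and 8730 to none; names come from a gene table of assembly TAIR10.1, which linked 13436. The brightest set stood for a gene. The members and lists were chosen with earlier results of these data known. A rule named the largest held changes (up to 12 each way, brighter group at or above the median signal), up to 4 called or 2 bright members per list, 6 marker genes and interaction calls; other named genes, and the lists so marked, were chosen after their values were seen. No sequence was used. Alternatives were quantile normalization, scaling to 1 median, an offset of 32, no filter or a 50% filter, no trend, only cpr5 and WT, the replicate block, and each of the 4 arrays left out.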

Additional observations from a re-analysis of the deposited data

Results flagged for a closer look

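In the test of whether the cpr5 effect differed between plants with and without npr1, 4 probe sets were called. A probe set with no gene listed had a difference of -3.60 on the log2 scale. WT read 37.4 and 23.1, cpr5 read 422 and 587, npr1 read 47.8 and 32.2, and cpr5npr1 read 47.2 and 63.5. For AT1G26640 and AT1G26650, which have neighbouring locus codes, the differences were -3.67 and -3.27, and both genes were near background only in cpr5npr1 (5.05 and 10.4, and 6.75 and 7.23). In the other 5 groups AT1G26640 read between 75.4 and 155 and AT1G26650 between 55.6 and 167. AT2G23680 had a difference of -2.59. None of the 4 was called without cpr5 replicate 1 or without cpr5 replicate 2.

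An Arabidopsis control probe set, left out of the comparisons, read 0.844 and 14.1 in WT and 324 and 237 in cpr5, a mean of 280 in cpr5. The 19 Arabidopsis control sets had a median log2 change of -0.09.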

How the results depend on the processing

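The main fit made 1387 calls, and the counts of calls given next are the totals of separate fits, not calls kept from the 1387. With only cpr5 and WT fitted there were 516 (457 higher, 59 lower, 88.6% higher). With the replicate block there were 2773 (1671 higher, 1102 lower, 60.3% higher). Scaling to 1 median gave 914 lower calls and 45.8% higher. Leaving out 1 array gave 539 (without cpr5 replicate 2) to 1567 (without WT replicate 2) calls, 469 to 1212 of them higher and 70 to 355 lower, 77.3% to 87% higher; without cpr5 replicate 1 there were 585. The interaction had 0 calls with no filter and with no trend, and 0 to 164 with an array left out. Of the calls of 88 named genes, 73 remained with quantile normalization, 77 with scaling to 1 median, 84 with the offset, 79 with no filter, 77 with no trend, 88 with the block, 33 with only cpr5 and WT fitted, and 34 (without cpr5 replicate 2) to 64 (without WT replicate 2) with an array left out; at the 50% filter 72 remained. No named called gene reversed its direction. The block ended no call of a named gene. The search for promoter motifs was not run, as no sequence was used. Signal below 7.76 limits the folds of genes dim in WT.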
